A study of Mus musculus with 20 samples.

Results

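In the cochleovestibular ganglion of the mouse embryo, 5189 distal sites held ISL1 peaks but no peak of any of the 3 histone modifications profiled. They were found by merging overlapping peaks of the 4 ISL1 lists, which gave 214116 regions. Of these, 18866 had a peak in exactly 2 or 3 lists, 16468 of those had no peak of POU4F1 replicate 1, and 14012 of those lay over 1 kb from either end of every protein-coding gene. The last step kept the 5189 without a peak in any of the 8 lists of H3K27ac, H3K4me3 or H3K27me3, which is 27.5% of the regions in 2 or 3 lists. They are called unmarked regions here. The 8242 regions that passed the same steps but overlapped a peak of at least 1 H3K27ac list are called acetylated regions, and the remaining 581 held only H3K4me3 or H3K27me3.

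The study applied CUT&Tag, in which an antibody tethers a transposase that cuts out the DNA beside its target, to 20 samples of ganglia labelled CVGs. All came from C57BL/6J embryos at E11.5, with no treatment or mutation in the labels. The antibody was directed against ISL1 (1 library named ISL1_26 and 3 named ISL1_70), POU4F1 (2 libraries), H3K4me3 (2), H3K27me3 (3) or H3K27ac (3), and the IgG libraries (IgGM 3, IgGR 3) were not analysed here. The meaning of 26 and 70 is not given in the labels, and neither is whether replicates are separate embryos, so the spread between them may be technical. The peaks were called in each library alone, and no read totals come with them, so the depth is unknown. The lists held 24573 to 95719 peaks for ISL1, 34249 and 29096 for POU4F1, and 8855, 106628 and 168144 for H3K27ac, so a region without a mark is one without a listed peak, not one shown to lack the modification.

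ISL1 is a LIM homeodomain transcription factor of postmitotic neurons, and POU4F1 is a POU homeodomain factor that is active beside it in sensory ganglia. H3K27ac is found at active promoters and enhancers, H3K4me3 at promoters, and H3K27me3 at genes silenced by Polycomb. Transcription factors are also found at sites without these modifications, among them sites in closed chromatin and sites bound briefly or weakly. Markers of cell types were looked up at gene ends. The share over all protein-coding genes was not counted beside them, so these counts do not test the ganglion label. H3K27ac was present in at least 2 lists at all 8 neuronal markers examined (Neurod1, Elavl3, Elavl4, Tubb3, Stmn2, Isl1, Pou4f1 and Prph). It was present at 3 of 5 markers of glia and neural crest, 2 of 5 of otic epithelium, 1 of 5 of mesenchyme and 1 of 5 of endothelium and blood. H3K27me3 was also listed at 7 of the 8 neuronal markers and at 5 of 5 mesenchymal ones. In such whole tissue, fewer cells with a mark and less mark per cell cannot be told apart.

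Sequence was available for the starts of annotated transcripts, as RefSeq windows of assembly GRCm38.p6 that run from 250 bases before to 50 after each start. Of the unmarked regions, 43 (0.829%) touched such a window, against 351 acetylated regions (4.26%) and 475 (0.354%) of the 134180 regions that met the same rule with a peak in 1 list only. The 43 regions touched 47 windows, of which 42 belong to lncRNA genes and 5 to protein-coding genes. The sequences below, picked after their values were seen, show the DNA under some of them: 4 lncRNA starts inside regions in 3 lists, and, from a region in 2 lists, the start of a transcript of Pcdh15, a protocadherin gene of hair cell tip links. Each is given 5′ to 3′ on the strand of the gene, with the homeodomain core TAAT, or ATTA where it lies on the other strand, in capitals.
Gm36661 (chr4:104027140-104027439, minus strand): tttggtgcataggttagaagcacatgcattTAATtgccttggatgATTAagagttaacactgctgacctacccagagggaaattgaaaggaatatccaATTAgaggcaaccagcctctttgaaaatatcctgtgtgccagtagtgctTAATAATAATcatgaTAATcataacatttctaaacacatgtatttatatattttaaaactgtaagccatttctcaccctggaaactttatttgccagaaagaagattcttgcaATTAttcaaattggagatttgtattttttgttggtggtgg
Gm32137 (chr2:117439734-117440033, plus strand): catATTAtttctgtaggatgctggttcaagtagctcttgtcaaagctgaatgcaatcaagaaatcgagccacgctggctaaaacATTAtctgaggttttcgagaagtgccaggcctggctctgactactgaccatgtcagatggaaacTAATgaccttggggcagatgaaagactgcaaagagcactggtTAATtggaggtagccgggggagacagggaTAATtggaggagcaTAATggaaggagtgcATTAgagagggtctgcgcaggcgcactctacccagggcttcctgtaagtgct
Gm35615 (chr13:6289377-6289676, minus strand): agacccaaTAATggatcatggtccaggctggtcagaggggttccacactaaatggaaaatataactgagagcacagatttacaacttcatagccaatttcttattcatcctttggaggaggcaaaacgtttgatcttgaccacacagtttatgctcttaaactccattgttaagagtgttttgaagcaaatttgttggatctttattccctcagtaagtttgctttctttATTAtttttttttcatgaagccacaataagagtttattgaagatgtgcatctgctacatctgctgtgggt
Gm12415 (chr4:84741225-84741483, plus strand, the part inside the region): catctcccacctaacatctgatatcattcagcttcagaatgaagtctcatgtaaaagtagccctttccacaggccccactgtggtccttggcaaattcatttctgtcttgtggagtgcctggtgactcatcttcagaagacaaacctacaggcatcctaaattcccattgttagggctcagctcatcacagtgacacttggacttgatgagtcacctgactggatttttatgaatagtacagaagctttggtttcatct
Pcdh15 (chr10:73821617-73821866, plus strand, the 250 bases before the start): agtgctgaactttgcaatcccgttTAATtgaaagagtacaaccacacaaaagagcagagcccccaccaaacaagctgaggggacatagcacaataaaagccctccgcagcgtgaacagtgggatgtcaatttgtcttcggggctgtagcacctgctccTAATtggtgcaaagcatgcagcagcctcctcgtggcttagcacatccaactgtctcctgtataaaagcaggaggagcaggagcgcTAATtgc
The strongest ISL1 summit lay inside the window at Gm32137 (base 117440003) and at Pcdh15 (base 73821666). At Gm36661 it lay 76 bases from the edge of the window and at Gm35615 it lay 81 bases from it, while at Gm12415 it lay 752 bases outside. The window at Gm36661 held 8 such cores, that at Gm32137 held 7, and that at Gm12415 held 0.

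Motifs in the 47 windows were counted beside those in windows at the other classes. Whole windows of 300 bases were read, and most of the 47 reached past the edge of their region. The overlap was as small as 21 bases, so part of the DNA counted lay outside the regions. Some windows were overlapping or nearby starts of the same gene. TAAT, searched on both strands, was in 39 of the 47 windows at unmarked regions (83.0%), in 48.8% of the 424 windows at acetylated regions, in 72.3% of the 531 windows at unmarked regions in 1 list and in 58.0% of all 32851 windows. The longer form TAATGG, which contains that core and is known from ISL1 binding sites, was in 8 windows at unmarked regions (17.0%), in 6.37% at acetylated regions, 13.2% at unmarked regions in 1 list and 7.73% of all. The other ISL1 form searched, CTAATG, was in 8.51%, 7.31%, 8.47% and 7.36% of the same 4 sets, and the palindrome TAATTA was in none of the 47, 5.42%, 7.72% and 5.29%. The E-box CAGATG, a form read by NEUROD and NEUROG factors, was in 19.1%, 20.0%, 25.8% and 17.2%. In the same order, the AP-1 motif TGANTCA was in 17.0%, 4.25%, 9.23% and 7.81%. The E-box CAGCTG was in 27.7%, 18.4%, 15.4% and 16.3%, and the SOX motif ACAAAG was in 12.8%, 19.8%, 26.7% and 18.7%. A higher share at unmarked regions was thus not particular to homeodomain forms, and further patterns searched are not listed here. The SP1 and KLF motif GGGCGG, typical of CpG island promoters, was in 8.51% of windows at unmarked regions against 48.1% at acetylated regions, 9.23% at unmarked regions in 1 list and 35.7% of all. The GC content also differed between the sets, at 47.0% for unmarked regions, 57.6% for acetylated regions, 47.7% for unmarked regions in 1 list and 53.8% for all windows. Its part in the motif shares was not tested. The windows at unmarked regions averaged 4.02 CpG each, against 14.4 at acetylated regions and 4.54 at unmarked regions in 1 list. The kind of gene differed as well. Windows of lncRNA genes were 42 of 47 at unmarked regions, 200 of 424 at acetylated regions, 450 of 531 at unmarked regions in 1 list and 11588 of all 32851. The part of gene kind in the motif shares was not tested. These letters are a description of the windows, which cover under 1 in 100 of the unmarked regions, and do not show a binding site.

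The regions were chosen by their ISL1 peaks, by the number of lists and by the absence of POU4F1 replicate 1 and mark peaks, so these values are described without a test. Most unmarked regions rested on 2 lists (4825 regions), and 364 rested on 3. How many such overlaps would arise by coincidence between lists of these sizes was not estimated, so a peak in 2 lists is not a proven ISL1 site. ISL1_26 replicate 1 had a peak in 3871 unmarked regions, ISL1_70 replicate 1 in 3483, ISL1_70 replicate 3 in 2170 and ISL1_70 replicate 2 in 1218. This order is that of the number of peaks per list. The largest combination was ISL1_26 replicate 1 with ISL1_70 replicate 1, at 2076 regions or 40.0%, and 740 regions were shared by ISL1_70 replicates 1 and 3 without ISL1_26. As a share of each list, the peaks in unmarked regions made up 4.06% of ISL1_26 replicate 1, 4.35% of ISL1_70 replicate 1, 4.97% of replicate 2 and 5.22% of replicate 3, which averages 4.65 ± 0.538% (SD, n = 4 libraries). The peaks in acetylated regions made up 7.93 ± 0.503% of the lists (SD, n = 4). The regions therefore drew a like share from each of the 4 lists. Leaving out ISL1_26 replicate 1 or ISL1_70 replicate 1 cut the number of unmarked regions to 1727 or 2111, and leaving out ISL1_70 replicate 3 cut it to 3333.

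**Figure D1:**
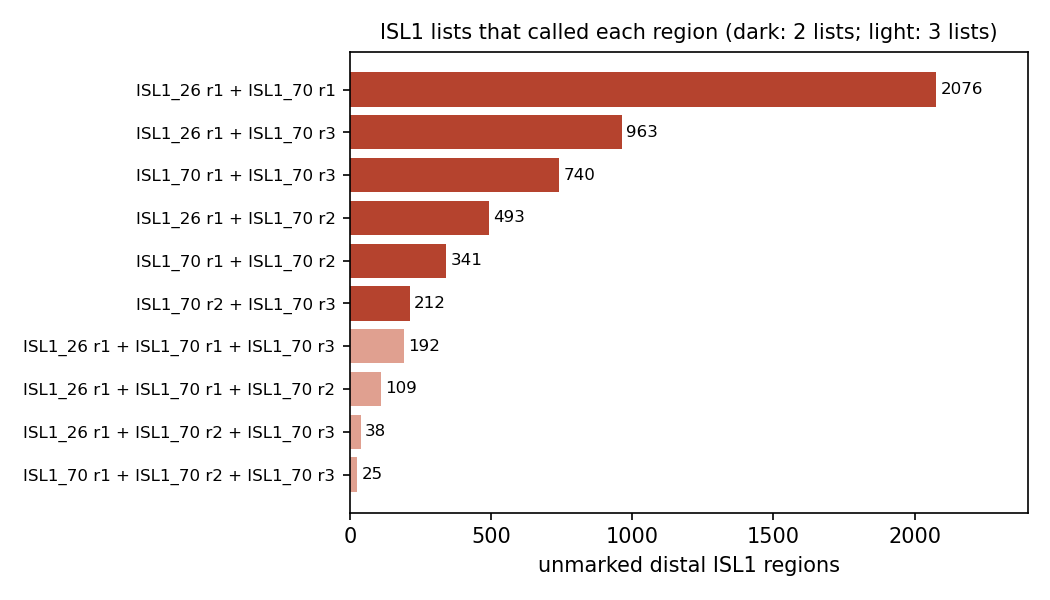
Number of unmarked distal ISL1 regions (horizontal axis) for each combination of ISL1 lists that called them (r, replicate), with pairs of lists in dark red and triples in light red. ISL1_26 replicate 1 with ISL1_70 replicate 1 gives 2076 regions, and the triple of the 3 ISL1_70 lists gives 25.

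Unmarked peaks stood near the middle of their lists by −log10 q, and acetylated peaks stood higher. The median percentile of the best peak, where 0 is the strongest, was 48.4 in unmarked regions and 19.2 in acetylated regions in ISL1_26 replicate 1. In ISL1_70 replicate 1 it was 50.7 in unmarked and 23.6 in acetylated regions, in replicate 2 it was 54.0 and 38.1, and in replicate 3 it was 48.8 and 44.4. By fold, the median was higher in acetylated regions in 3 lists, but in ISL1_70 replicate 3 it was 21.5 in unmarked and 17.0 in acetylated regions. The gap in percentile was widest in ISL1_26 replicate 1 and narrowest in ISL1_70 replicate 3, and the classes overlapped broadly in each list. Unmarked regions had a median width of 724 bp, acetylated regions of 900 bp and unmarked regions in 1 list of 441 bp. In regions with 2 lists, the summits of both lists lay a median of 203 bp apart in unmarked regions, with 27.7% of them within 100 bp, and 218 bp apart in acetylated regions, with 25.8% within 100 bp.

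**Figure D2:**
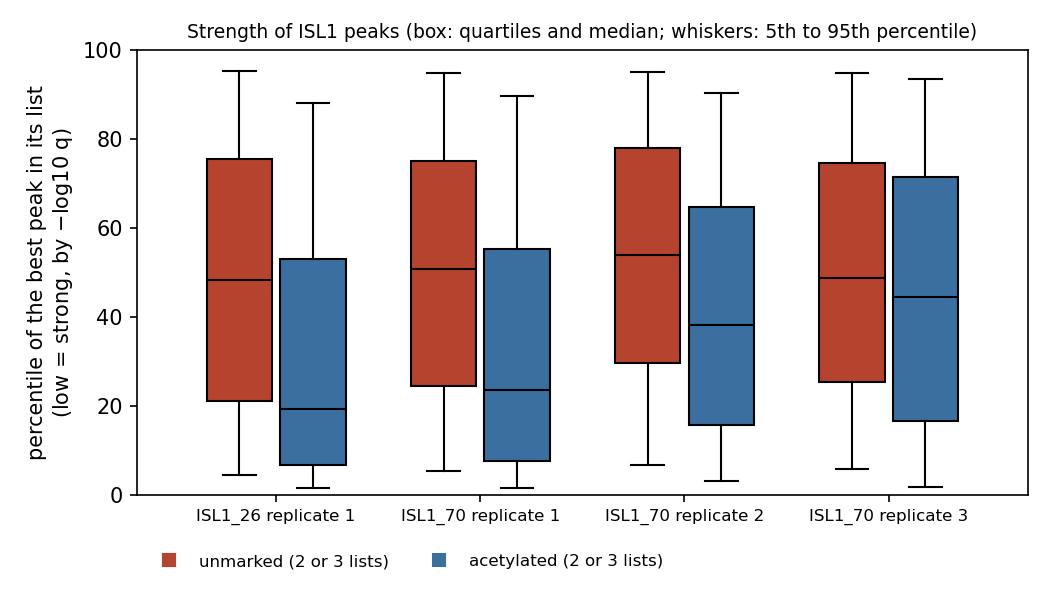
Percentile of the best ISL1 peak within its own list, low values being strong, for unmarked (red) and acetylated (blue) regions in each ISL1 library; boxes give quartiles and median, whiskers the 5th to 95th percentile. Unmarked medians lie between 48.4 and 54.0, and acetylated medians between 19.2 and 44.4.

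The leading unmarked regions were ranked by the mean percentile over the 4 lists, with 100 for a list without a peak. The first 10 had a peak in 3 lists each and mean percentiles of 25.0 to 26.8. The 100 for each missing list keeps regions in 2 lists below these ranks, so the 3 lists each follow from the score. Of these 10, 6 lay outside protein-coding genes, 7 lay over 100 kb from a gene end, 8 lay within 10 kb of an H3K27ac peak and none held a POU4F1 replicate 2 peak.

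The first region, chr12:97061432-97061792, was 361 bp wide and lay 1140 kb from the nearest gene end, that of Galc, a lysosomal galactosylceramidase. It had no peak in ISL1_26, and the authors' −log10 q in ISL1_70 replicates 1, 2 and 3 was 1268, 3943 and 8848, at folds over the caller's background of 11.8, 25.2 and 67.6. The second, chr2:22587288-22590189, lay inside Myo3a, which encodes a myosin of hair cell stereocilia, and was the second widest unmarked region at 2902 bp. It too was in the 3 ISL1_70 lists and not in ISL1_26, with folds of 54.5, 72.3 and 34.1 in replicates 1, 2 and 3. No mask of regions that collect reads in many assays was applied, and only 25 unmarked regions shared this pattern of lists.

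The next 8 leading regions had 1 missing list each, and 7 of them had a peak in ISL1_26. The third, chr18:63261891-63263202, lay in Piezo2, the mechanosensitive channel of touch and proprioceptive neurons, 5.97 kb from the nearest H3K27ac peak. Its fold was 58.6 in ISL1_26 replicate 1, 44.4 in ISL1_70 replicate 1 and 99.1 in ISL1_70 replicate 3. The fourth, chr15:64777588-64779421, lay in Adcy8, an adenylyl cyclase, with folds of 30.2, 48.8 and 11 in the same 3 libraries. The eighth, chr7:97150732-97152077, lay in Gab2, a docking protein of receptor signalling, and was absent from ISL1_26, with folds of 44.0, 106 and 83.0 in ISL1_70 replicates 1, 2 and 3. The other 5 lay outside genes. Their nearest gene ends were those of Usp25 at 344 kb, Tmeff2 at 253 kb, Plet1 at 175 kb, Klhl29 at 711 kb and Gsdmc at 487 kb. Distance to the nearest gene end names a neighbour and not a target.

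POU4F1 replicate 2 was not used to choose the regions, and its shares describe this 1 list of the second factor. It had a peak in 88 of 5189 unmarked regions (1.70%, 95% Wilson interval 1.38 to 2.08%), against 244 of 8242 acetylated regions (2.96%, 2.62 to 3.35%), beside 3.31% of all 18866 ISL1 regions in 2 or 3 lists. The odds of a POU4F1 replicate 2 peak were thus lower in unmarked regions, with an odds ratio of 0.565 (95% interval 0.442 to 0.723) and an adjusted p of 7.42e-06 in a two-sided Fisher's exact test (Benjamini-Hochberg over the 11 tests on regions). These p-values treat regions as independent, describe these lists and do not measure the spread between embryos. The median widths differed too (724 bp unmarked, 900 bp acetylated). At 100 bp on each side of the strongest summit, where width is equal, the shares were 0.829% in unmarked and 1.60% in acetylated regions, an odds ratio of 0.513. Among regions with a peak in a given library, the odds ratio was 0.538 for ISL1_26 replicate 1, 0.547 for ISL1_70 replicate 1 and 0.515 for ISL1_70 replicate 3. Among regions of ISL1_70 replicate 2 it was 0.825 and the call was lost (Fisher's exact test, adjusted p = 0.528).

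Against unmarked regions in 1 list, the share was higher when whole regions were compared and not at summits. POU4F1 replicate 2 had a peak in 1.70% of unmarked regions in 2 or 3 lists and in 1543 of 134180 in 1 list (1.15%), an odds ratio of 1.48 (1.19 to 1.84; Fisher's exact test, adjusted p = 0.00138). At 100 bp on each side of the strongest summit the shares were 0.829% and 0.831%, an odds ratio of 0.997 (Fisher's exact test, adjusted p = 1.0). The call was also lost without ISL1_26 replicate 1 (1.46, Fisher's exact test, adjusted p = 0.091), without ISL1_70 replicate 1 (1.36, adjusted p = 0.155) and among regions of ISL1_70 replicate 3 (1.38, adjusted p = 0.117). The 348 regions that met the rule but for a POU4F1 replicate 1 peak held a replicate 2 peak in 10 cases (2.87%, Wilson interval 1.57 to 5.21%). The odds ratio of unmarked regions against them was 0.583 with an interval of 0.300 to 1.13 that includes 1 (Fisher's exact test, adjusted p = 0.165). At these 348 regions the lists of both POU4F1 replicates thus seldom coincided. The shares of replicate 2 therefore do not stand for POU4F1 occupancy.

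The 5 unmarked regions that led among those with POU4F1 replicate 2 lay in or near genes of varied function. The first, chr13:8534131-8535305, lay inside Adarb2, a member of the RNA-editing deaminase family. Its fold was 30.4 in ISL1_26 replicate 1, 66.1 and 54.4 in ISL1_70 replicates 2 and 3, and 25.7 in POU4F1 replicate 2. The second lay 24.2 kb from C4b, a complement component, and 0.327 kb from an H3K27ac peak, with a fold of 41.0 in POU4F1 replicate 2. The other 3 lay nearest to Cxadr, an adhesion protein and virus receptor, at 44.0 kb, Arrdc4, an arrestin domain protein, at 168 kb and C1d, a cofactor of the RNA exosome, at 232 kb.

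Unmarked regions lay further from genes than acetylated ones. Inside a protein-coding gene lay 2233 unmarked regions (43.0%, Wilson interval 41.7 to 44.4%) and 4814 acetylated regions (58.4%, 57.3 to 59.5%), beside 57.5% of all ISL1 regions in 2 or 3 lists. The odds ratio was 0.538 (0.501 to 0.577; Fisher's exact test, adjusted p = 1.08e-66). Over 100 kb from any gene end lay 35.3% of unmarked regions (34.0 to 36.6%) and 22.6% of acetylated regions (21.7 to 23.5%), beside 23.3% of all ISL1 regions in 2 or 3 lists. The odds ratio was 1.87 (1.73 to 2.02; Fisher's exact test, adjusted p = 1.06e-56). The median distance to a gene end was 53.0 kb for unmarked regions and 32.3 kb for acetylated regions. Taken library by library, the odds ratio for lying inside a gene was 0.537 to 0.555 and that for lying over 100 kb away was 1.80 to 1.92.

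By position alone, unmarked regions came close to regions in 1 list and to the genome as a whole. Of unmarked regions in 1 list, 40.1% lay inside a gene and 35.9% lay over 100 kb from a gene end, with a median distance of 52.3 kb. Of positions 1 kb apart along the chromosomes that lay over 1 kb from a gene end, 38.2% were inside a gene and 37.6% were over 100 kb from an end. These are given as a description with no test.

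**Figure D3:**
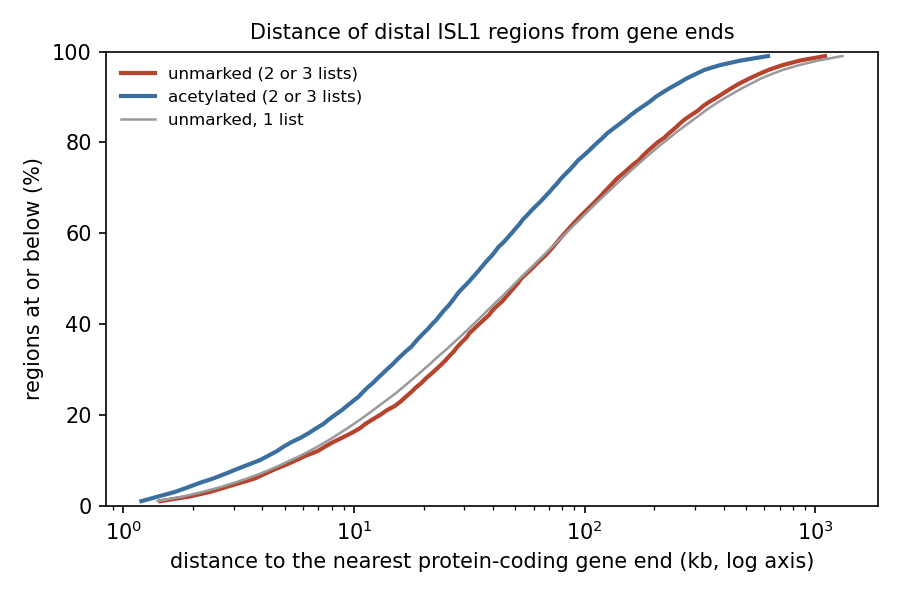
Share of regions (vertical axis, %) at or below each distance to the nearest protein-coding gene end (horizontal log axis, kb), for unmarked regions (red), acetylated regions (blue) and unmarked regions in 1 list (grey). The red curve runs along the grey one, with medians of 53.0 and 52.3 kb, to the right of the blue curve with its median of 32.3 kb.

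The gap to acetylated chromatin was measured next. No share of genome positions near H3K27ac was counted, so the values compare classes of ISL1 regions only. The median gap to the closest H3K27ac peak was 3.77 kb for unmarked regions and 5.53 kb for unmarked regions in 1 list. An H3K27ac peak lay within 1 kb of 22.8% of unmarked regions and within 10 kb of 71.8% (70.6 to 73.0%), against 17.1% and 63.8% of those in 1 list, beside 90.6% within 10 kb of all ISL1 regions in 2 or 3 lists. For 10 kb, the odds ratio between unmarked regions in 2 or 3 lists and in 1 list was 1.44 (1.36 to 1.53; Fisher's exact test, adjusted p = 2.16e-32). Measured from the strongest summit, so that wider regions gain nothing, it was 1.42. Both classes were chosen as free of peaks of these same H3K27ac lists, so the test at 10 kb describes them and gives no independent support. The 3 H3K27ac lists did not weigh alike: within 10 kb of a peak of replicate 3 lay 66.7% of unmarked regions and 58.8% of those in 1 list, for replicate 2 it was 45.3% and 37.6%, and for the short list of replicate 1 it was 5.59% and 5.42%.

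The nearest gene carried H3K27ac at an end, in at least 2 lists, for 53.4% of unmarked regions (52.1 to 54.8%) and 49.4% of those in 1 list, beside 65.2% of all ISL1 regions in 2 or 3 lists. The odds ratio was 1.18 (1.11 to 1.24; Fisher's exact test, adjusted p = 2.95e-08), and without ISL1_26 replicate 1 it was 1.10 and no longer passed (Fisher's exact test, adjusted p = 0.091). Here too the feature was read from the H3K27ac lists that chose both classes. The shares themselves rested on 2 H3K27ac libraries: with the regions chosen anew without H3K27ac replicate 2 they were 23.6% of unmarked regions and 21.7% of those in 1 list, and without replicate 3 they were 24.0% and 22.6%. H3K27ac marked the nearest gene for 5772 of 8242 acetylated regions, given with no test because H3K27ac formed that class. H3K27me3 was listed at an end of the nearest gene for 34.4% of unmarked regions, 33.8% of acetylated regions and 31.1% of unmarked regions in 1 list. An H3K27me3 peak lay within 10 kb of 27% of unmarked regions, 42.1% of acetylated regions and 22.6% of unmarked regions in 1 list. Acetylated regions could overlap an H3K27me3 peak and both unmarked classes could not. Their shares are therefore not alike in selection and are given with no test.

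**Figure D4:**
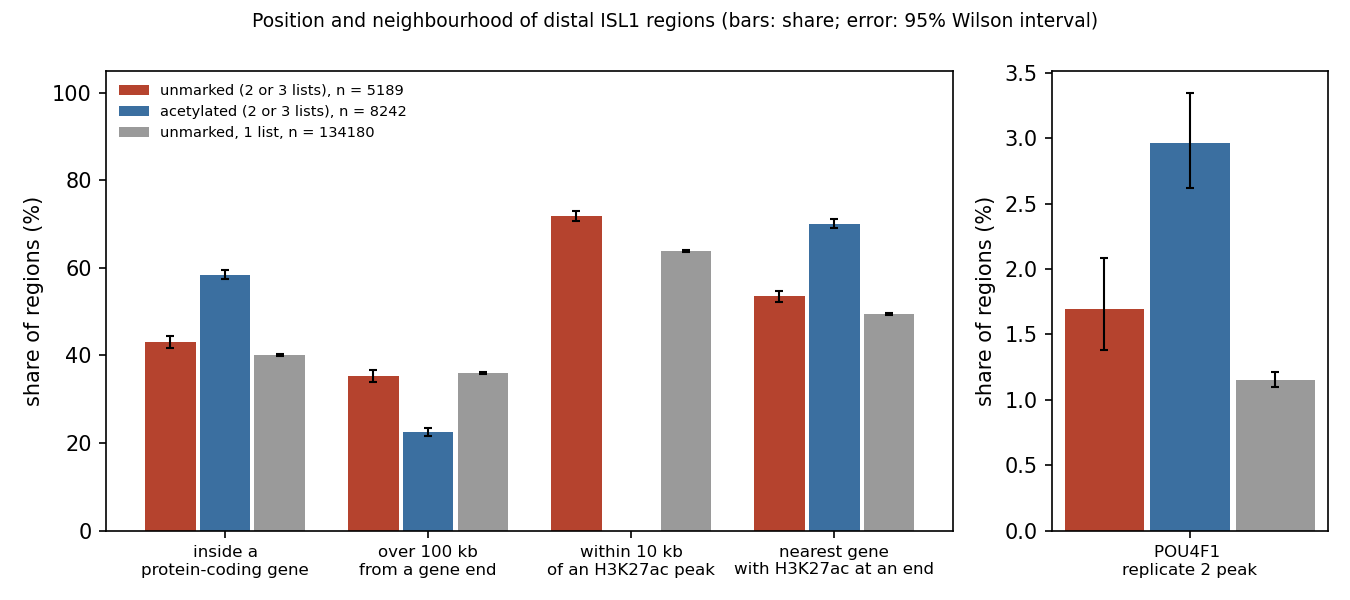
Share of regions (vertical axes, %) with each feature in unmarked (red), acetylated (blue) and single-list unmarked (grey) regions, with 95% Wilson intervals; the right panel has its own scale. The share within 10 kb of H3K27ac is not drawn for acetylated regions, which overlap such a peak by definition. Unmarked regions lie below acetylated ones for location inside a gene (43.0 and 58.4%) and for POU4F1 replicate 2 (1.70 and 2.96%).

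A small set was far from any acetylated site. Of the unmarked regions, 97 (1.87%) lay over 100 kb from every H3K27ac peak, and 85 of these were outside genes. Of the 97, 12 were on chromosome X and 13 on chromosome Y, where 15 unmarked regions lay in all. Chromosome X held 137 unmarked regions (2.64%) and 82 acetylated regions (0.995%), and chromosome Y held 15 unmarked regions and no acetylated region. The sex of the embryos is not in the labels.

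Regions in 3 lists were set against those in 2, and 1 of 4 features passed the test. Of regions in 3 lists, 2.20% held POU4F1 replicate 2, against 1.66% of regions in 2 lists, an odds ratio of 1.33 (0.639 to 2.78; Fisher's exact test, adjusted p = 0.44). Inside a gene lay 41.5% of regions in 3 lists and 43.2% of those in 2 (0.934, 0.752 to 1.16; Fisher's exact test, adjusted p = 0.546). Within 10 kb of H3K27ac lay 75.3% and 71.5% (1.21, 0.947 to 1.55; Fisher's exact test, adjusted p = 0.165). Over 100 kb from a gene end lay 41.8% of regions in 3 lists and 34.8% of those in 2, an odds ratio of 1.34 (1.08 to 1.67; Fisher's exact test, adjusted p = 0.0138). That call was lost without ISL1_26 replicate 1 (1.47), ISL1_70 replicate 1 (1.26), ISL1_70 replicate 2 (1.22), H3K27ac replicate 2 (1.17) or H3K27ac replicate 3 (1.21), and among regions of ISL1_70 replicate 3 (1.22). Among the pairs of lists, the share within 10 kb of H3K27ac ran from 60.4% for ISL1_70 replicates 2 and 3 to 73.1% for ISL1_26 replicate 1 with ISL1_70 replicate 1. The share inside a gene ran from 39.8% for ISL1_26 replicate 1 with ISL1_70 replicate 3 to 46.3% for ISL1_70 replicates 1 and 2.

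The spacing of unmarked regions is given as a description, with no other class or random placement counted beside it. No other unmarked region lay within 100 kb of 3119 of them (60.1%), the highest number of neighbours was 5, and 117 regions had 3 or more. The 5 densest places were inside Asic2, which encodes an acid-sensing ion channel subunit, and near Tmem132e, a transmembrane protein gene, Ift57, a component of intraflagellar transport, Magi1, a scaffold protein of cell junctions, and Irx6, an Iroquois homeodomain factor. The widest unmarked region was 3895 bp and lay 4.37 kb from Trappc6b, a subunit of a vesicle tethering complex, and the third was 2348 bp and lay inside Zfhx4, a zinc finger homeodomain factor, 0.158 kb from an H3K27ac peak. At the limit of 1 kb, the regions just kept lay 1011, 1016 and 1020 bp from the ends of Slc22a15, Smok2a and Hdhd2. Those just dropped lay 998, 982 and 971 bp from the ends of Fign, Bdh2 and Dnajb11, and 180 regions without a mark were dropped by this limit. The limit of 3 lists left out 62 unmarked regions with a peak in all 4, led by regions nearest to Arrdc4, Rack1 and Mindy3.

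Genes were then counted with the gene body and 10 kb on each side. An unmarked region was present at 2144 of 21887 protein-coding genes (9.8%) and an acetylated region at 3439 (15.7%), with 1.93 unmarked and 4.13 acetylated regions per Mb over all genes. The genes with most unmarked regions were long. Asic2 held 15 unmarked and 21 acetylated regions. Auts2, a nuclear regulator in developing neurons, held 9 unmarked and 11 acetylated, Dab1, the adaptor of reelin signalling, 9 and 9, and Rbfox1, a neuronal splicing factor, 9 and 10. In Csmd1, which encodes a large transmembrane protein with complement control domains, unmarked regions were in excess at 8 unmarked to 1 acetylated. In Fhit, a dinucleoside hydrolase gene at a chromosomal fragile site, there were 8 unmarked and 3 acetylated. The other genes among the first 10 were Nrxn3, with 7 unmarked and 8 acetylated, Tenm3 with 7 and 5, Pard3b with 7 and 4, and Cntnap2 with 7 and 4. All 10 genes were over 1 Mb long. Of the 227 genes of at least 500 kb, 74.0% had an unmarked and 65.6% an acetylated region, at 2.48 unmarked and 2.85 acetylated per Mb. Shorter genes had 1.85 unmarked and 4.32 acetylated per Mb.

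The genes of both factors were examined next. Isl1 had no unmarked and no acetylated region in the window but was the nearest gene of 3 unmarked regions further away, and Pou4f1 had 1 unmarked and 1 acetylated among its 5 ISL1 regions in 2 or 3 lists and was the nearest gene of 2 unmarked regions. Of 35 transcription factors of inner ear neurons, 13 had an unmarked and 18 an acetylated region, at 7.75 unmarked and 18.3 acetylated per Mb, and the median was 0 unmarked per gene, as it was over all genes. Myt1l, a zinc finger factor of neuronal identity, had 4 unmarked and 1 acetylated. Ebf1, a helix-loop-helix factor of differentiating neurons, had 4 unmarked and 10 acetylated, and Runx1, a Runt factor of sensory neurons and blood, had 3 and 3. Of 22 genes of neurotrophin and survival signalling, 9 had an unmarked and 13 an acetylated region. Ntrk2 and Ntrk3, the receptors of BDNF and of neurotrophin-3, on which these neurons depend, had 2 unmarked each, with 4 acetylated at Ntrk2 and 2 at Ntrk3. Gfra1, a receptor of GDNF, had 1 unmarked and 6 acetylated.

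In genes of axons and of the cell surface, the balance between both classes varied by list. Of 32 axon guidance genes, 16 had an unmarked and 23 an acetylated region. The Slit receptors Robo2 and Robo1 had 5 unmarked each, with 2 acetylated at Robo2 and 5 at Robo1, and Dcc, the netrin receptor, had 3 unmarked and no acetylated. Of 43 genes of neuronal adhesion, 25 had an unmarked and 24 an acetylated region, at 2.90 unmarked and 2.84 acetylated per Mb, with Nrxn3 (a presynaptic neurexin), Tenm3 (a teneurin) and Cntnap2 (a neurexin relative) in the lead. Of 40 genes of ion channels and glutamate receptors, 23 had an unmarked and 21 an acetylated region. The potassium channel gene Kcnma1 had 5 unmarked and 1 acetylated, Kcnip4, whose product binds Kv4 potassium channels, had 4 and 2, and the glutamate receptor gene Grm7 had 3 and 1. These lists held long genes, with median lengths of 193 kb for axon guidance, 424 kb for adhesion and 396 kb for channels against 17.2 kb for all genes. The median was 77.9 kb for neurotrophin and survival signalling and 73.3 kb for synapse and cytoskeleton. The part of length in the counts of these lists was not tested. Of 36 genes of synapse and cytoskeleton, 10 had an unmarked and 16 an acetylated region. Rbfox1 led that list, Dclk1, a microtubule-associated kinase, had 2 unmarked and 3 acetylated, and Pclo, a presynaptic scaffold, had 1 and 1.

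In lists of other cell types, unmarked regions were at 4 of 21 genes of glia and neural crest (2.17 per Mb), acetylated at 6, with Nrg1, the neuregulin that acts on Schwann cells, at 5 and 5. They were at 2 of 26 genes of otic epithelium and hair cells (1.49 per Mb), acetylated at 7. There, Fgf10, a ligand needed for the otic placode and canals, had 1 unmarked region with a mean percentile of 34.2 and no acetylated, and Col9a1, a cartilage collagen, had 1 and none. Among 25 mesenchymal genes, 3 had an unmarked (4.01 per Mb) and 6 an acetylated region, with Col1a2, a fibrillar collagen, at 2 and none. Of 22 genes of endothelium and blood, 4 had an unmarked (3.27 per Mb) and 4 an acetylated region. The unmarked densities of the glial, mesenchymal and endothelial lists were above the 1.93 per Mb of all genes, and the last 2 were above the 2.90 of neuronal adhesion. These densities rested on only 8, 5 and 6 regions. Of the 8 glial ones, 5 were at Nrg1. Of the 6 endothelial ones, 3 were at Runx1, which is also in the list of inner ear neurons. Of 30 Hox genes, none had an unmarked and 3 had an acetylated region. Of 30 housekeeping genes, 1 (Ywhaz) had an unmarked and 2 an acetylated region, as did 1 (Cdx1) and 2 of 24 genes of muscle, gut and liver. The 1465 olfactory and vomeronasal receptor genes had an unmarked region at 32 and an acetylated one at 4, at 0.941 unmarked and 0.114 acetylated per Mb, with Vmn1r238, Olfr571 and Olfr572 among them. Their unmarked density was thus below the 1.93 per Mb of all genes, while their acetylated density was lower still against 4.13.

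**Figure D5:**
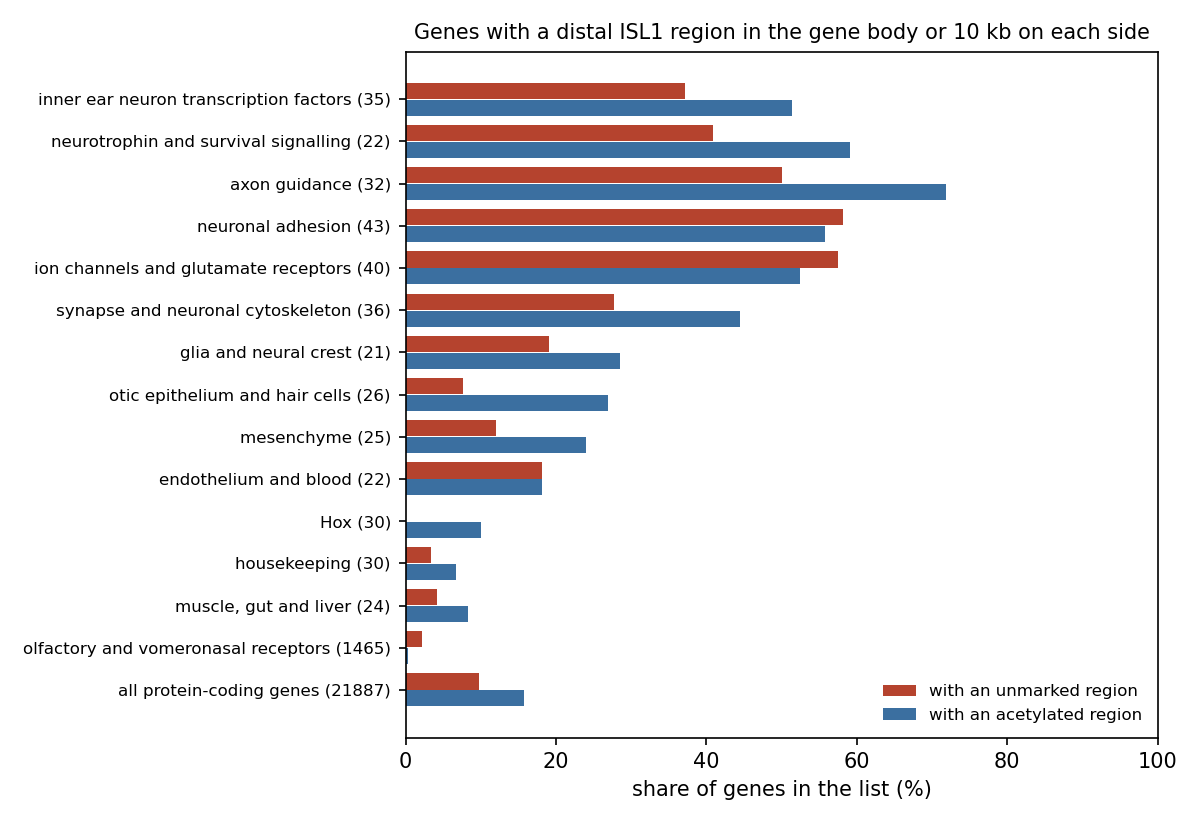
Share of the genes of each list (horizontal axis, %; number of genes in brackets) with an unmarked region (red, upper bar) or an acetylated region (blue, lower bar) in the gene body or 10 kb on each side. Over all protein-coding genes the shares are 9.8% and 15.7%; neuronal adhesion reaches 58.1% and 55.8%, and the Hox list 0 and 10.0%.

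Non-coding genes were overlapped at low rates. A lncRNA gene was overlapped by 11.3% of unmarked regions (10.4 to 12.1%), 13.5% of acetylated regions (12.8 to 14.3%) and 9.44% of unmarked regions in 1 list. Transfer RNA genes were overlapped by 4 unmarked and 5 acetylated regions, and miRNA genes by 3 unmarked and 8 acetylated regions. One of the unmarked regions, 48.0 kb from the zinc finger gene Zfp184, covered Mir1983 on chromosome 13, and another, 44.6 kb from Dhx40, covered the hairpin Gm51288 on chromosome 11.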

How the data were processed

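The peak lists of 14 libraries were used as the authors deposited them, 1 list per library without pooling. Per the file headers (the peak names), MACS2 was the peak caller and used a control, which is not given in the sources used here. The submitters' processing notes name FastQC, Bowtie2, SEACR and the build mm10, without versions or roles. The deposited columns give each peak's fold over the caller's local background, −log10 of the p-value and of the q-value (only −log10 q was used here) and its summit. Every list reaches down to a −log10 q of about 1. The deposited score column was not used. Fold and −log10 q are the authors' values and were used to describe or rank peaks within a list. A deeper library gives more peaks, which changes every count and overlap.

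Only the primary chromosomes (1 to 19, X, Y) entered, and peaks were merged where they overlapped by at least 1 bp. Genes (21887 protein-coding, RefSeq GRCm38.p6) have no strand in the table, so both ends were used. Shares of regions were tested with a two-sided Fisher's exact test, adjusted by Benjamini-Hochberg over 11 tests, with a threshold of 0.05; Wilson intervals are at 95% and odds ratios have Woolf intervals. Intervals cover counting error only. Of the 14 gene lists, each was counted with the gene body and 10 kb on each side. Regions were named by the mean percentile over the ISL1 lists (10 leading, 5 leading with POU4F1 replicate 2), by neighbours within 100 kb (5), by width (3) and at the 1 kb limit (3 on each side). Genes named were the 10 with most unmarked regions and up to 3 per list, and the sequences and other items named were chosen after their values were seen. The members, lists and tests were chosen with earlier results of these data known. Motif tests at summits need a genome sequence and were not run. Counting was tested on simulated regions. Python 3.11.15, numpy 2.4.6, pandas 2.3.3 and scipy 1.17.1 were used.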

Additional observations from a re-analysis of the deposited data

How the results depend on the processing

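The odds ratios for lying inside a gene and over 100 kb from a gene end against acetylated regions, and for lying within 10 kb of H3K27ac against regions in 1 list, kept their direction and passed in all 21, 21 and 22 settings run, at 0.481 to 0.592, 1.68 to 2.20 and 1.33 to 1.60. The last of these compares classes chosen with the same H3K27ac lists. The number of unmarked regions ran from 1727 to 6626 when 1 library was left out. For POU4F1 replicate 2 against acetylated regions, the one call lost of 23 was among regions of ISL1_70 replicate 2 (0.825). Against regions in 1 list, leaving out 1 library gave 1.36 to 1.57, with the call lost without ISL1_26 replicate 1 (1.46) or ISL1_70 replicate 1 (1.36). The call was also lost among regions of ISL1_70 replicate 3 (1.38), and the ratio turned at summits (0.997). Against regions with POU4F1 replicate 1, overlap of 50% turned it to 1.29, and leaving out 1 library gave 0.346 to 0.924, past the threshold only without ISL1_26 replicate 1. For H3K27ac at the nearest gene, leaving out 1 library gave 1.08 to 1.21, with the call lost without ISL1_26 replicate 1 (1.10).

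Between 3 and 2 lists, the POU4F1 replicate 2 ratio, never past the threshold, turned at 50% overlap (0.877), at summits (0.994) and among regions of ISL1_70 replicate 1 (0.912), and was 0.315 to 1.98 with 1 library left out. The ratio inside a gene turned among regions of ISL1_70 replicate 2 (1.02) and was 0.833 to 1.03 with 1 library left out. The ratio over 100 kb was 1.22 among regions of ISL1_70 replicate 3 and 1.17 to 1.68 with 1 library left out. The ratio within 10 kb of H3K27ac passed at 50% overlap (1.34) and without H3K27ac replicate 2 (1.36), and was 1.03 to 1.36 with 1 library left out. The causes were not tested. Settings within 1 ISL1 library and from the summit for H3K27ac were added after seeing the data.

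No paired analysis was possible because the tests set classes of regions from the same lists against each other, not groups of samples with shared replicate numbers; values within each ISL1 library stand beside the results. The planned motif windows were not run. With the depth unknown, a missing peak cannot be told apart from a shallow library.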
